A study of Mus musculus with 11 samples.

Results

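The chemokines and their receptors were examined in the aorta of old mice with and without dietary nitrate. Members were all array genes named Ccl, Cxcl, Ccr or Cxcr with a number and at most 1 further letter, together with Cx3cl1, Cx3cr1, Xcl1 and Xcr1. This gave 56 of the 36413 gene names on the array, of which 37 encode ligands and 19 encode receptors, measured by 68 of the 55681 probes on the array. Both groups were male C57BL/6 mice aged 20 months. Old nitrate treated mice drank water with 1 g/L sodium nitrate (NaNO3) for 8 weeks. The labels of the old control mice refer to a re-analysis of earlier samples and name no salt, whereas the methods of the study give an equal concentration of sodium chloride as the control. From the labels alone it is not known whether the mice of both groups lived side by side. Total RNA came from the descending aorta, which had been flushed and cleaned of surrounding fat and connective tissue, and each array held 1 mouse. Files of 5 nitrate and 6 control arrays were used, and the sixth nitrate mouse of the study was not analysed here. The comparison asked which of these genes the old vessel expresses and whether their level differed after nitrate.

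Chemokines are small secreted proteins that guide leukocytes along concentration gradients. They bind membrane receptors that signal through inhibitory G proteins to integrins and the cytoskeleton. In the arterial wall, endothelial cells, smooth muscle cells, fibroblasts and resident macrophages can make them, and they are best known there for drawing monocytes and T cells into inflamed vessels. Ligands fall into inflammatory ones, which cytokines induce, and homeostatic ones, which organise lymphoid tissue. Many bind several receptors.

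Control 5 stood apart in detection. It had 30893 probes well above background compared with 26445 to 28896 on the other arrays, the lowest detection floor (3.28 compared with 3.80 or more, log2) and the lowest mean correlation with the other arrays (0.978 compared with 0.983 to 0.987). Without it, a setting chosen after seeing the data, Cxcl10 alone among the members was no longer detected. Ccl26 was above background on control 5 alone. Upper-quartile signals lay between 213 and 289 and no array had a saturated spot or more than 186 flagged ones. Between 30 and 36 of the members were well above background on an array. Both groups were present on each of the 3 slides, but all 6 controls sat in column 3 of a slide and no nitrate array did, so array position and treatment cannot be told apart. Of the marker lists, all 5 pan-leukocyte genes, all 10 macrophage genes, all 5 smooth muscle genes, all 5 fibroblast genes and all 5 endothelial genes were detected. All 7 adipocyte genes and all 6 striated muscle genes were detected too, although the vessel had been cleaned. Striated muscle genes were on average 2.88 log2 units above the control mean in nitrate mouse 4 and 2.50 above it in control mouse 1.

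A sequence window from RefSeq (assembly GRCm38.p6), from 250 bases before to 50 bases after the start of the gene, was available for 44 of the members. The windows of Ccl19, Cxcl9 and Cxcl10 are shown because Ccl19 and Cxcl9 passed the thresholds of the comparison below, and Cxcl10 is the neighbour of Cxcl9 that did not. In Ccl19 (chr4:42756316-42756615, minus strand) capitals mark the sequences of 2 of the 3 Ccl19 probes of the array. In Cxcl9 (chr5:92328030-92328329, minus strand) they mark a TATA motif (TATAAA). In Cxcl10 (chr5:92348840-92349139, minus strand) they mark an interferon-stimulated response element (ISRE, searched on both strands as TTTC, any 2 bases and TTTC) and after it a pair of NF-kB motif stretches.
Ccl19: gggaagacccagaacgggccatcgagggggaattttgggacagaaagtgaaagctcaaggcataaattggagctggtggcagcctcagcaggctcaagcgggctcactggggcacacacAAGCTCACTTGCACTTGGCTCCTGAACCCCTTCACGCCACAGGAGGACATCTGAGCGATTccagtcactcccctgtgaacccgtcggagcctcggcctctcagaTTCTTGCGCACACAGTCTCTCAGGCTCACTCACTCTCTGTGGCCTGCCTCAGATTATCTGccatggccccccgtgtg
Cxcl9: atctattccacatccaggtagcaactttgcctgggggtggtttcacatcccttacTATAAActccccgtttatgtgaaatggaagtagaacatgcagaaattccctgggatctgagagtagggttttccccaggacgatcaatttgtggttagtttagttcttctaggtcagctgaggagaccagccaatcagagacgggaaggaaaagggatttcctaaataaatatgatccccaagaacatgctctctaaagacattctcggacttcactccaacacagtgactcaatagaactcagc
Cxcl10: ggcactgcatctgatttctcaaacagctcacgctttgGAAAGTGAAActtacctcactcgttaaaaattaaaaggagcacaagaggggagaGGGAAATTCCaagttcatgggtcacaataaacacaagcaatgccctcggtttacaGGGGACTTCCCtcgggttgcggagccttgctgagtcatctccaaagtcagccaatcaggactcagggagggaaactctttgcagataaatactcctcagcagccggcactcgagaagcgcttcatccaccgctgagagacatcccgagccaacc
The capital stretches of Ccl19 began 131 and 27 bases before the RefSeq start. The first lay wholly before that start, and its letters also lie in the window of a neighbouring gene model, Gm12407. The Cxcl10 window held its ISRE 213 bases before the start and its NF-kB stretches 159 and 104 bases before it. The Cxcl9 window held neither of these, nor an interferon-gamma activated site (GAS, searched as TTCNNNGAA), and its TATA motif lay 195 bases before the start. The Ccl19 window also held an ISRE, 208 bases before the start. Over all 32544 windows an ISRE was present in 3.45%, a GAS in 8.33%, an NF-kB motif in 8.49% and a TATA motif in 13.6%. Among the 44 member windows the numbers were 3, 3, 11 and 11. These matches are descriptions of letters and not binding sites.

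Chemokines were detected in the old aorta about as often as array genes in general. A gene was counted as detected where the software found the spot of a probe, and marked it as well above background, in 5 or more mice of a group. By this rule 27 of the 56 genes (48.2%) were detected, 21 ligands and 6 receptors, compared with 18294 of the 36413 gene names on the array (50.2%). A further 4 genes, Ccl8, Ccr7, Ccr8 and Cx3cr1, were well above background on enough arrays but lacked the flag that the spot had been found. For Ccr8 this rests on its brighter probe, and its other probe was above background on no array. Of the 56 genes, 28 were well above background on all 11 arrays. Of the 25 genes left, 18 were above background on no array and 7 on 1 to 6 arrays.

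Detection differed between and within ligand families. Among the members, which by name leave out the platelet chemokines Pf4 and Ppbp, every gene for neutrophil attraction was undetected. The ligands Cxcl1, Cxcl2, Cxcl3, Cxcl5 and Cxcl15 and their receptors Cxcr1 and Cxcr2 were above background on no array. The same held for the inflammatory ligands Ccl3 and Ccl4 and for Ccr1, whereas Ccl5, Ccl6 and Ccl9 of the same family were detected. It also held for Ccl22 and its receptor Ccr4, for Ccl1, for the mucosal ligands Ccl20, Ccl28 and Cxcl17, and for the pair Xcl1 and Xcr1, which links lymphocytes to cross-presenting dendritic cells. In contrast, the monocyte ligands Ccl2, Ccl7, Ccl8 and Ccl12, the interferon-inducible ligands Cxcl9 and Cxcl11 and the lymphoid ligands Ccl19, Ccl21a, Ccl21b and Cxcl13 were above background on all 11 arrays. Ligands and receptors did not always go together. Cxcl13 was above background on every array, whereas its receptor Cxcr5 was above background on no nitrate array and 2 control arrays, among them control 5. Cxcl12, which retains progenitor cells and supports vessel repair, was above background on every array together with its receptor Cxcr7 (now named Ackr3). The other receptor of Cxcl12, Cxcr4, was above background on no nitrate array and 2 control arrays, among them control 5. For Cxcr5 and Ccl26 the detection floor of every nitrate array lay above the control mean. For Cxcr4, with a control mean of 4.05, this held on nitrate arrays 1, 2 and 3. The floors of nitrate arrays 4 and 5 were lower, at 3.88 and 4.01. No fold change is given for Cxcr4, Cxcr5 and Ccl26.

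**Figure D1:**
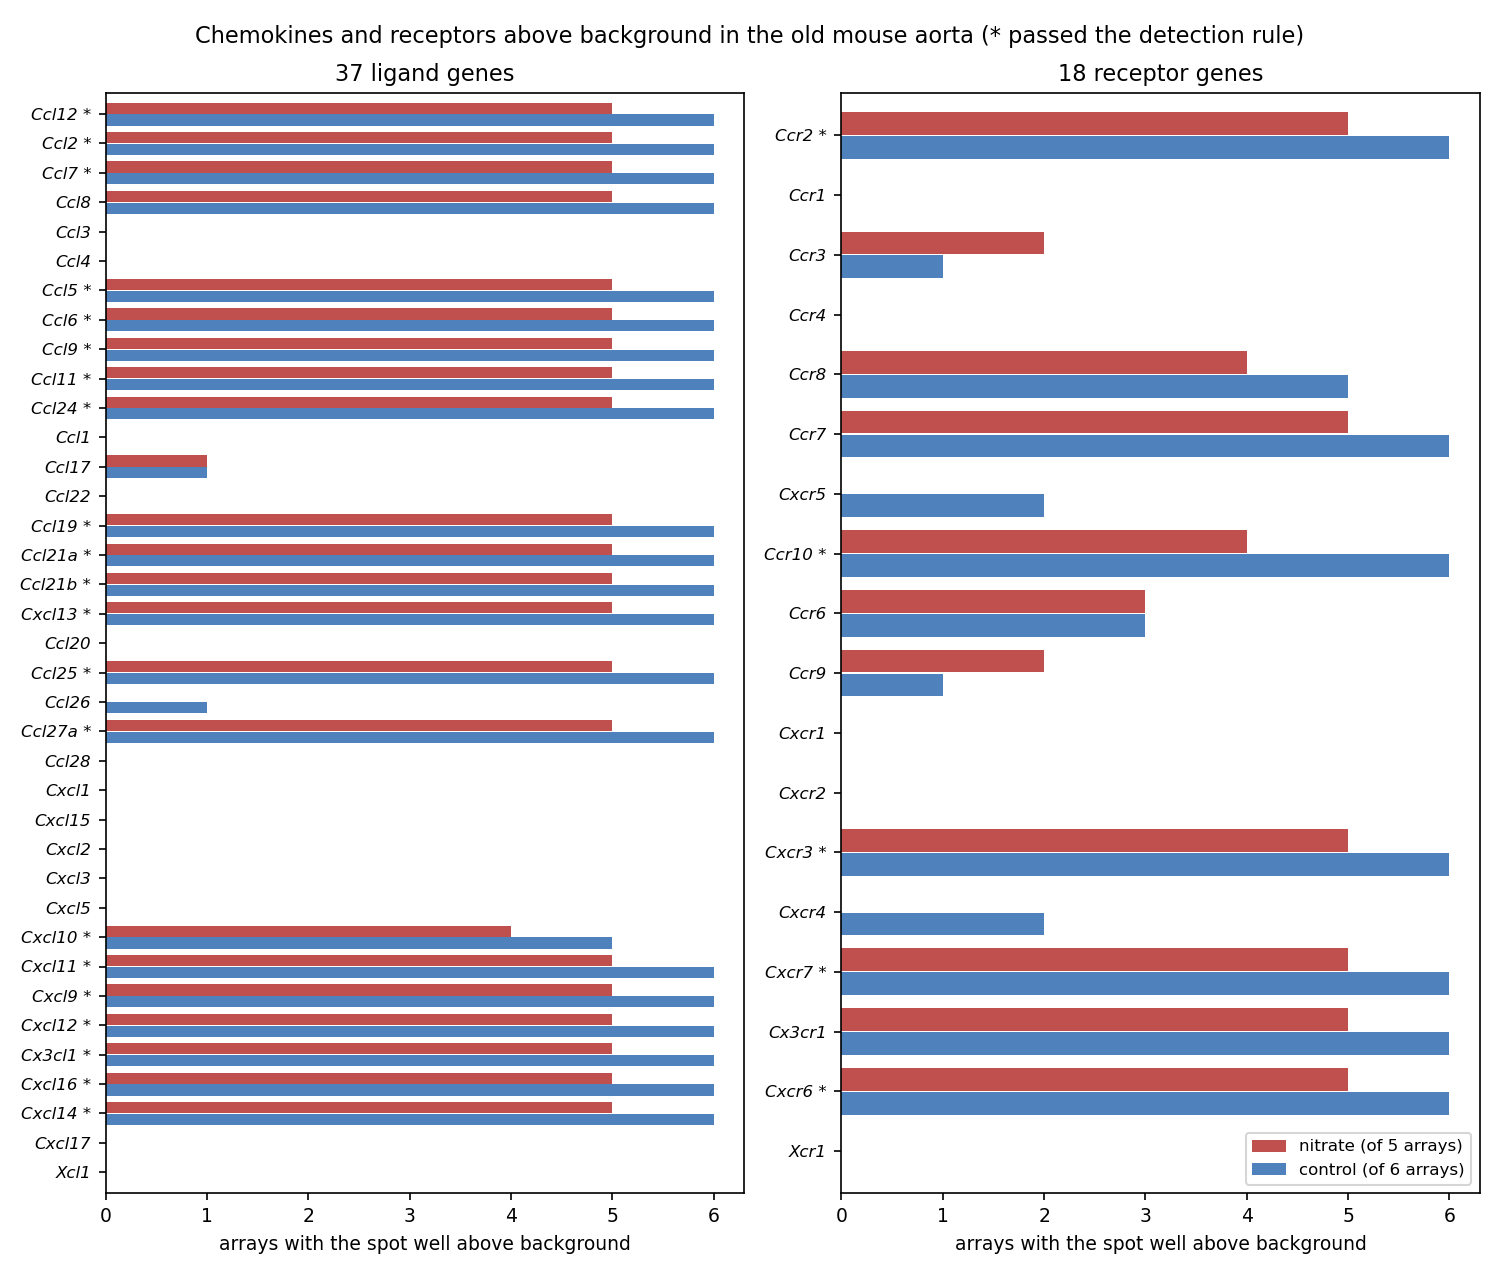
Number of arrays on which each member gene was well above background, for 5 nitrate arrays (red) and 6 control arrays (blue), with 37 ligands on the left and 18 of the receptors on the right. The 7 member genes for neutrophil attraction have no bars, whereas Ccl2, Ccl19 and Cxcl9 reach 5 and 6 arrays.

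Dietary nitrate was accompanied by differences in few of these genes. A gene was called where the P value of limma's moderated test was below 0.05 without adjustment and the fold change was above 1.2, the thresholds of the study. Of the 27 detected genes 4 were called, 14.8%, compared with 9.00% of all 23632 detected probes. Ccl19 was higher in old nitrate treated mice (4.16% of all probes were called higher), and Ccl5, Cxcl9 and Cxcr6 were lower (4.85% of all probes were called lower). No member passed a Benjamini-Hochberg adjusted P value of 0.05 in limma, whose smallest value was 0.144 for Cxcl9, and 0.0127% of all probes did. At an unadjusted P value under 0.05, 4 members passed by limma, compared with 14.4% of all probes, and 4 by the two-sided exact permutation test. With the 4 genes that lacked the spot-found flag, the same 4 of 31 genes were called, compared with 9.14% of 26161 probes. With detection and fit both made without control 5, 5 of 26 genes were called, Cxcl13 in addition. The share of the 22346 probes called in that fit is not given, so this count cannot be set against all probes. At the probe that represents a gene the groups overlapped for all 27 genes, whereas 2.75% of all probes had groups without overlap. As these arrays measured whole vessels, fewer cells of a type and less RNA per cell cannot be told apart.

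As a description of the list, 22 of the 27 detected genes had a lower mean in old nitrate treated mice, and 5 had a higher one (Ccl19, Ccl27a, Cx3cl1, Cxcl16 and Cxcr7). Over all tested probes 53.8% had a higher mean. The median difference was -0.15 on the log2 scale for the members and 0.01 for all tested probes, and the median absolute difference was 0.16 compared with 0.11. The median of the members was -0.04 when detection on all 11 arrays was asked for, -0.09 with normexp background correction or without a detection filter, -0.07 without nitrate mouse 1, -0.09 without nitrate mouse 5 and -0.08 without control 1. Among the 27 genes, 7 were detected through 1 group alone, 3 of them through the nitrate arrays (Ccl12, Ccl25 and Ccr2) and 4 through the control arrays (Ccl7, Ccr10, Cxcl10 and Cxcl13). A gene that passes through the group where it reads higher is favoured by the filter. Of the 20 that were detected in both groups, 15 had the lower mean in old nitrate treated mice.

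**Figure D2:**
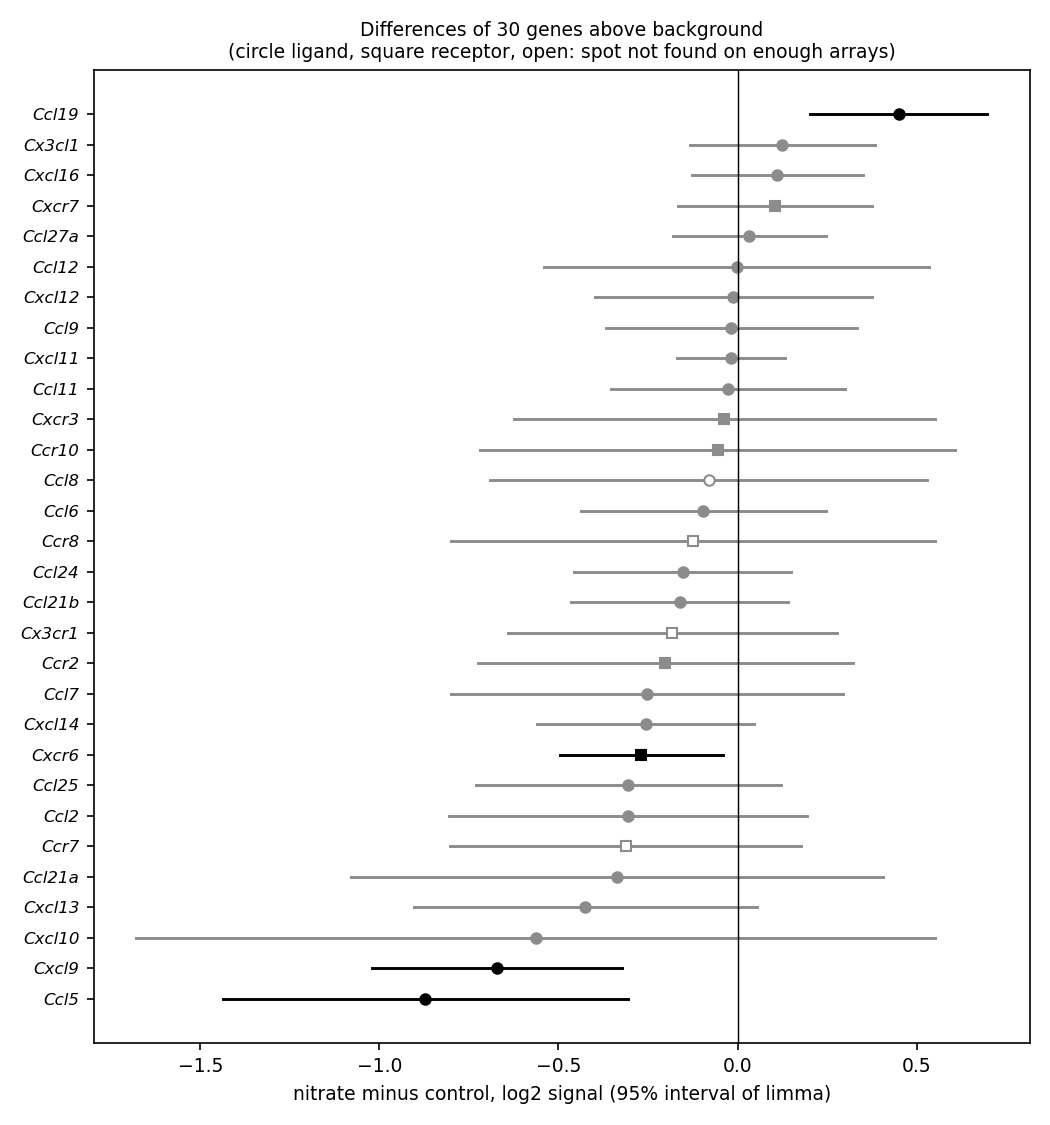
Difference in mean log2 signal, nitrate minus control, with its 95% interval from limma, for 30 of the 31 genes above background (5 nitrate and 6 control mice). Black marks the 4 called genes, with Ccl19 at 0.45 above zero and Cxcr6, Cxcl9 and Ccl5 at -0.27, -0.67 and -0.87 below it, while the other intervals span zero.

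Ccl19 was the only member called higher. CCL19 is made by stromal cells of lymphoid tissue and brings T cells and dendritic cells that carry CCR7 together. Its brightest probe (mm9 chr4:42250105-42250164) read 8.48, 9.16, 8.96, 9.01 and 8.86 log2 units in the 5 nitrate mice. The controls read 8.23, 8.54, 8.59, 8.47, 8.39 and 8.44. Of the nitrate mice, 4 lay above every control and nitrate mouse 1 lay within the control range. The means were 8.89 ± 0.26 (SD, n = 5) and 8.44 ± 0.13 (SD, n = 6), a difference of 0.45 with a standard error of 0.11 (exact permutation P = 0.00866, adjusted P = 0.157 in limma). This is 1.37-fold. The other probes of the gene were called too, with differences of 0.37 (exact permutation P = 0.0303) and 0.32 (exact permutation P = 0.00866). Within the 3 slides the difference of the brightest probe was 0.43, 0.51 and 0.44. RefSeq lists 3 Ccl19 pseudogenes on chromosome 4 beside the gene, of which 2 are transcribed, and which of the copies the probes reported was not tested. The files place the probes on the plus strand of mm9, and RefSeq places Ccl19 on the minus strand of GRCm38.

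The other genes of lymphoid homing were not called. Ccl21a and Ccl21b encode nearly identical ligands of CCR7 that lymphatic endothelium and lymph node stroma make. Ccl21a read 9.57, 10.59, 11.16, 10.85 and 9.88 in the nitrate mice and 10.28, 9.86, 11.13, 10.55, 11.50 and 11.16 in the controls, a difference of -0.34 with a standard error of 0.34. This difference rested on single mice, with -0.13 without nitrate mouse 1 and -0.52 without nitrate mouse 3, and within slides it was 0.01, 0.31 and -0.95. Ccl21b read 11.53, 11.88, 12.19, 11.85 and 11.61 in the nitrate mice and 11.85, 11.69, 12.05, 11.81, 12.34 and 12.11 in the controls, a difference of -0.16 with a standard error of 0.14. Their probes matched in 54 of 60 bases, and RefSeq lists the further copies Ccl21c and Ccl21d, so signals of the copies cannot be told apart. Cxcl13, which draws B cells into follicles, read 5.26, 5.55, 5.76, 4.85 and 4.84 in the nitrate mice compared with 5.97, 6.26, 5.48, 5.80, 5.25 and 5.29 in the controls. Its difference was -0.42 with a standard error of 0.22 (exact permutation P = 0.126). It was detected through the controls alone, with its spot found and above background on 3 nitrate and 5 control arrays. Within slides the difference was -0.71, 0.22 and -0.52, and with normexp background correction it was -0.18. It ranged from -0.55 to -0.31 when each mouse was left out in turn. With slide as a block its limma P value was 0.0291, with the replicate number as a block 0.0223, without nitrate mouse 3 0.0280, without control 5 0.0426 and without control 6 0.0478, each with a fold change above the limit. Ccr7, the receptor of Ccl19 and Ccl21, read between 4.75 and 5.31 in the nitrate mice and between 4.75 and 5.95 in the controls, a difference of -0.31 with a standard error of 0.22. The signal of the Ccl19 probes was thus higher, and Ccr7 did not pass the test. The difference between these genes was not tested. The lymphatic endothelial marker list, of which 2 of 4 genes were detected, had a mean difference of 0.03, with mice between -0.30 and 0.35 on nitrate and between -0.31 and 0.24 in the controls.

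Ccl5 was lower in old nitrate treated mice. CCL5 (RANTES) is secreted by activated T cells and platelets and attracts T cells and monocytes. Its probe (mm9 chr11:83339296-83339355) read 7.24, 8.05, 7.78, 8.08 and 8.43 in the nitrate mice and 9.18, 8.66, 9.39, 9.10, 8.21 and 8.19 in the controls. All nitrate mice but mouse 5 lay below every control. The means were 7.92 ± 0.44 (SD, n = 5) and 8.79 ± 0.51 (SD, n = 6), a difference of -0.87 with a standard error of 0.26 (exact permutation P = 0.0216, adjusted P = 0.206 in limma), or 1.83-fold. Within slides it was -1.28, -0.86 and -0.54. The myeloid ligands of the same group had smaller differences, -0.10 with a standard error of 0.16 for Ccl6 and -0.02 with a standard error of 0.16 for Ccl9. Ccl6 read between 10.13 and 10.93 in the nitrate mice and between 10.40 and 10.88 in the controls. Ccl9 read between 9.03 and 9.81 in the nitrate mice and between 9.18 and 9.64 in the controls.

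Cxcl9 was the second ligand that was lower. CXCL9, CXCL10 and CXCL11 are induced by interferons and recruit effector T cells through CXCR3. The detected Cxcl9 probe (mm9 chr5:92752796-92752855) read 5.93, 6.00, 6.38, 5.67 and 5.95 in the nitrate mice and 7.19, 6.84, 6.61, 6.42, 6.55 and 6.34 in the controls. Only nitrate mouse 3 reached the lowest control. The means were 5.99 ± 0.26 (SD, n = 5) and 6.66 ± 0.31 (SD, n = 6), a difference of -0.67 with a standard error of 0.16 (exact permutation P = 0.00649, adjusted P = 0.144 in limma), or 1.59-fold. A second probe, above background on all arrays but not found as a spot on enough of them, differed by -0.66 (exact permutation P = 0.00433), and its groups did not overlap, with a highest nitrate reading of 7.06 and a lowest control reading of 7.09. Within slides the difference was -1.05, 0.00 and -0.77, and with normexp background correction the overall difference was -0.38 and still called. The slide without a difference held nitrate mouse 3 alone with controls 4 and 6. The probe was not found and well above background on all 11 arrays, so a rule asking for this left Cxcl9 out.

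The neighbours of Cxcl9 on chromosome 5 did not pass the test. Cxcl10 varied most among the 31 genes above background, over 3.43 log2 units. It read 5.24, 6.26, 5.003, 3.93 and 4.56 in the nitrate mice and 5.27, 7.35, 5.94, 5.48, 5.09 and 4.25 in the controls. Its difference of -0.56 had a standard error of 0.51, and no difference was detected within an interval from -1.68 to 0.55. It was -0.21 without control 2 or with normexp background correction, -0.30 without nitrate mouse 4 and -0.88 without nitrate mouse 2, none of them called. With the replicate number as a block Cxcl10 was called, at -0.83. It was above background on 4 nitrate and 5 control arrays and so was detected through the controls alone. Cxcl11 varied least among them, with means of 17.26 ± 0.13 (SD, n = 5) and 17.28 ± 0.05 (SD, n = 6). Its difference was -0.02 with a standard error of 0.07, and its other probe, with means of 10.81 and 10.89, differed by -0.08. The first probe lay near the upper end of the signal range, where 22 of 55681 probes were brighter, and what this does to its spread was not tested. The 2 probes lie next to each other in the gene but read far apart, with 4929 probes brighter than the second. Which of them reports the level of Cxcl11 was not tested. The strain C57BL/6 is known to carry a frameshift in Cxcl11 that leaves no functional protein, although the transcript is made. The receptor Cxcr3 read 5.48, 5.29, 5.53, 5.90 and 5.43 in the nitrate mice and 5.88, 4.99, 6.38, 6.14, 5.01 and 4.97 in the controls, a difference of -0.04 with a standard error of 0.27. Control mice thus fell on both sides of the nitrate range. The interval of this difference, from -0.62 to 0.55, included changes as large as that of Cxcl10.

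**Figure D3:**
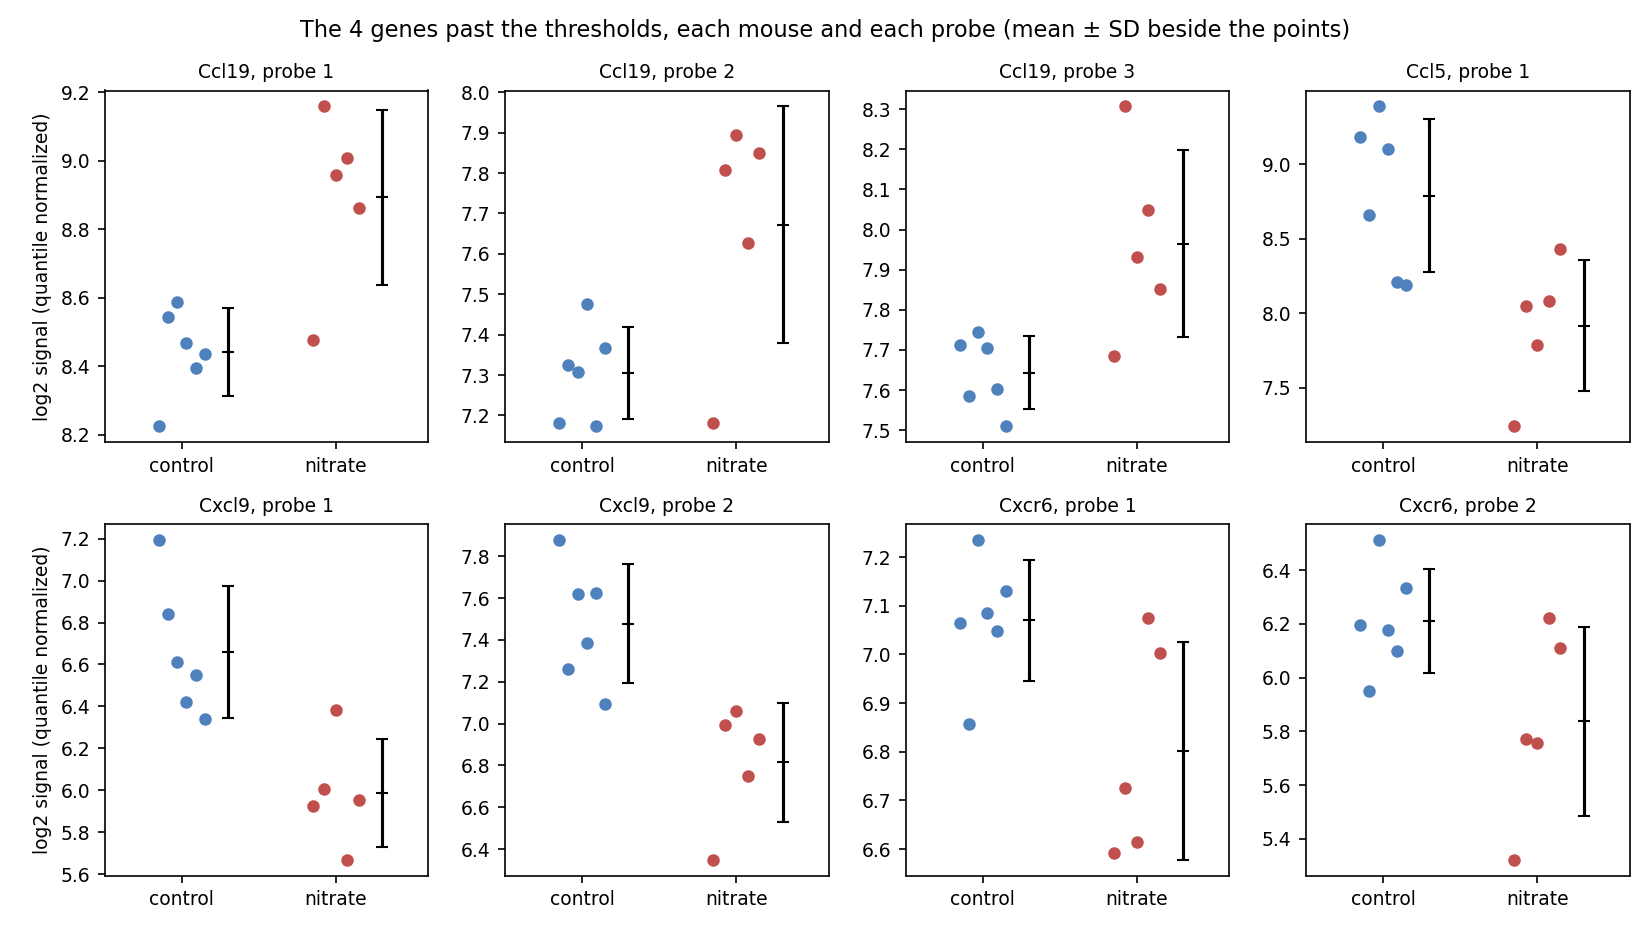
Quantile normalized log2 signal of every mouse for each probe of Ccl19, Ccl5, Cxcl9 and Cxcr6, with control mice in blue, nitrate mice in red and the mean ± SD in black (5 nitrate and 6 control mice, vertical axes not starting at zero). All 3 Ccl19 probes have a higher nitrate mean, and the probes of Ccl5, Cxcl9 and Cxcr6 have lower ones.

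Cxcr6 was the only receptor called. CXCR6 sits on effector and resident T cells and natural killer T cells and binds CXCL16, a ligand anchored in the membrane of endothelial cells and macrophages. Its brightest probe (mm9 chr9:123720719-123720778) read 6.59, 6.72, 6.61, 7.08 and 7.002 in the nitrate mice and 7.06, 6.86, 7.24, 7.09, 7.05 and 7.13 in the controls. Nitrate mice 1, 2 and 3 lay below every control, and mice 4 and 5 lay among them. The means were 6.80 ± 0.22 (SD, n = 5) and 7.07 ± 0.12 (SD, n = 6), a difference of -0.27 with a standard error of 0.10 (exact permutation P = 0.0433, adjusted P = 0.293 in limma). The second probe differed by -0.37 (exact permutation P = 0.0498), but it shares 50 of its 60 bases with the first. The call was lost without nitrate mouse 1 (-0.22), 2 (-0.25) or 3 (-0.22) and without control 3 (-0.24) or 6 (-0.26), with normexp background correction (-0.15) and with 16 added to the signal (-0.24). Within slides the difference was -0.30, -0.49 and -0.10.

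The membrane-anchored ligands had slightly higher means on nitrate. Cxcl16 read 7.24, 7.75, 7.69, 7.80 and 7.51 in the nitrate mice and 7.46, 7.59, 7.71, 7.33, 7.46 and 7.35 in the controls, a difference of 0.11 with a standard error of 0.11. Cx3cl1 (fractalkine), which captures monocytes under flow, read 10.60, 10.85, 10.43, 10.24 and 10.33 in the nitrate mice and 10.02, 10.46, 10.44, 10.37, 10.50 and 10.40 in the controls, a difference of 0.13 with a standard error of 0.12. Its receptor Cx3cr1, on patrolling monocytes and resident macrophages, differed by -0.18 with a standard error of 0.21, and by -0.26 with the other probe. None of these passed the test. Without 1 mouse the differences ranged from 0.06 to 0.20 for Cxcl16, from 0.04 to 0.19 for Cx3cl1 and from -0.28 to -0.05 for Cx3cr1. Within slides they were -0.04, 0.35 and 0.07 for Cxcl16, 0.48, 0.05 and -0.18 for Cx3cl1, and -0.72, 0.32 and -0.07 for Cx3cr1.

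The families that draw monocytes and eosinophils were expressed without a called gene. Ccl2 (MCP-1), the main ligand that brings monocytes to vessels, differed by -0.31 with a standard error of 0.23. It read 7.60, 7.24, 7.04, 6.62 and 6.55 in the nitrate mice and 7.45, 8.10, 7.05, 7.04, 7.10 and 7.14 in the controls, so the groups overlapped. With slide as a block it was called, at an unadjusted limma P value of 0.0268. Ccl7 differed by -0.25 with a standard error of 0.25, Ccl12 by 0.00 with a standard error of 0.25, Ccl8 by -0.08 with a standard error of 0.28, and Ccr2, the receptor of Ccl2, Ccl7 and Ccl12, by -0.20 with a standard error of 0.24. Control mouse 2 held the highest reading of both Ccl2 and Ccl7, and without it their differences were -0.15 and -0.05. The eotaxins Ccl11 and Ccl24 differed by -0.03 with a standard error of 0.15 and by -0.15 with a standard error of 0.14, while their receptor Ccr3 was above background on 2 nitrate arrays and 1 control array. Without nitrate mouse 3 Ccl24 was called, at a difference of -0.27.

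Other homeostatic ligands were not called in the comparison of all mice. Cxcl12 differed by -0.01 with a standard error of 0.18, its other probe by 0.09, and Cxcr7 by 0.10 with a standard error of 0.12. Cxcl14, a ligand of epithelia and fibroblasts, differed by -0.26 with a standard error of 0.14 and was called without nitrate mouse 5 (-0.32) or without control 4 (-0.32). Ccl25, a thymic and gut ligand, differed by -0.30 with a standard error of 0.19 and was called without nitrate mouse 5 (-0.45) and with the replicate number as a block (-0.37). Its receptor Ccr9 was above background on 3 arrays. Ccl27a, a skin ligand of CCR10, differed by 0.03 with a standard error of 0.10. A further Ccl27a probe, which lies elsewhere in the gene, differed by 0.25 (exact permutation P = 0.0195), below the fold limit, and RefSeq lists the copy Ccl27b beside the gene. Ccr10 differed by -0.05 with a standard error of 0.30. Ccr8, which guides skin-homing and regulatory T cells, differed by -0.12 with a standard error of 0.31.

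Chemokine genes lie in clusters, which differed in how many members were detected. Members less than 1000000 bases apart in mm9 formed 7 clusters of at least 3 genes. The chromosome 5 cluster of Cxcl1, Cxcl2, Cxcl3, Cxcl5 and Cxcl15 held no detected member. All 3 of Cxcl9, Cxcl10 and Cxcl11, further along the same chromosome, were detected. The platelet chemokine genes Pf4 and Ppbp, which the name rule leaves out, lie within the span of the Cxcl1 cluster. Pf4 was detected, with means of 11.53 on nitrate and 11.50 in the controls. Ppbp was well above background on 5 nitrate and 6 control arrays but did not pass the detection rule. On chromosome 11, 4 of the 6 genes around Ccl2 and 3 of the 5 genes around Ccl5 were detected. On chromosome 4 all 4 genes of the Ccl19, Ccl21 and Ccl27a cluster were detected. On chromosome 8, Cx3cl1 was detected out of 3 genes, and on chromosome 9, 3 of 7 genes were detected.

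Mice differed among themselves. The median deviation of the 27 genes from the control mean was -0.32, -0.13, -0.05, -0.12 and -0.24 in the nitrate mice and 0.14, 0.10, 0.11, -0.08, -0.11 and -0.11 in the controls. Control mice 4, 5 and 6 thus lay among the nitrate mice on this measure, and controls 1, 2 and 3 lay above all of them.

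**Figure D4:**
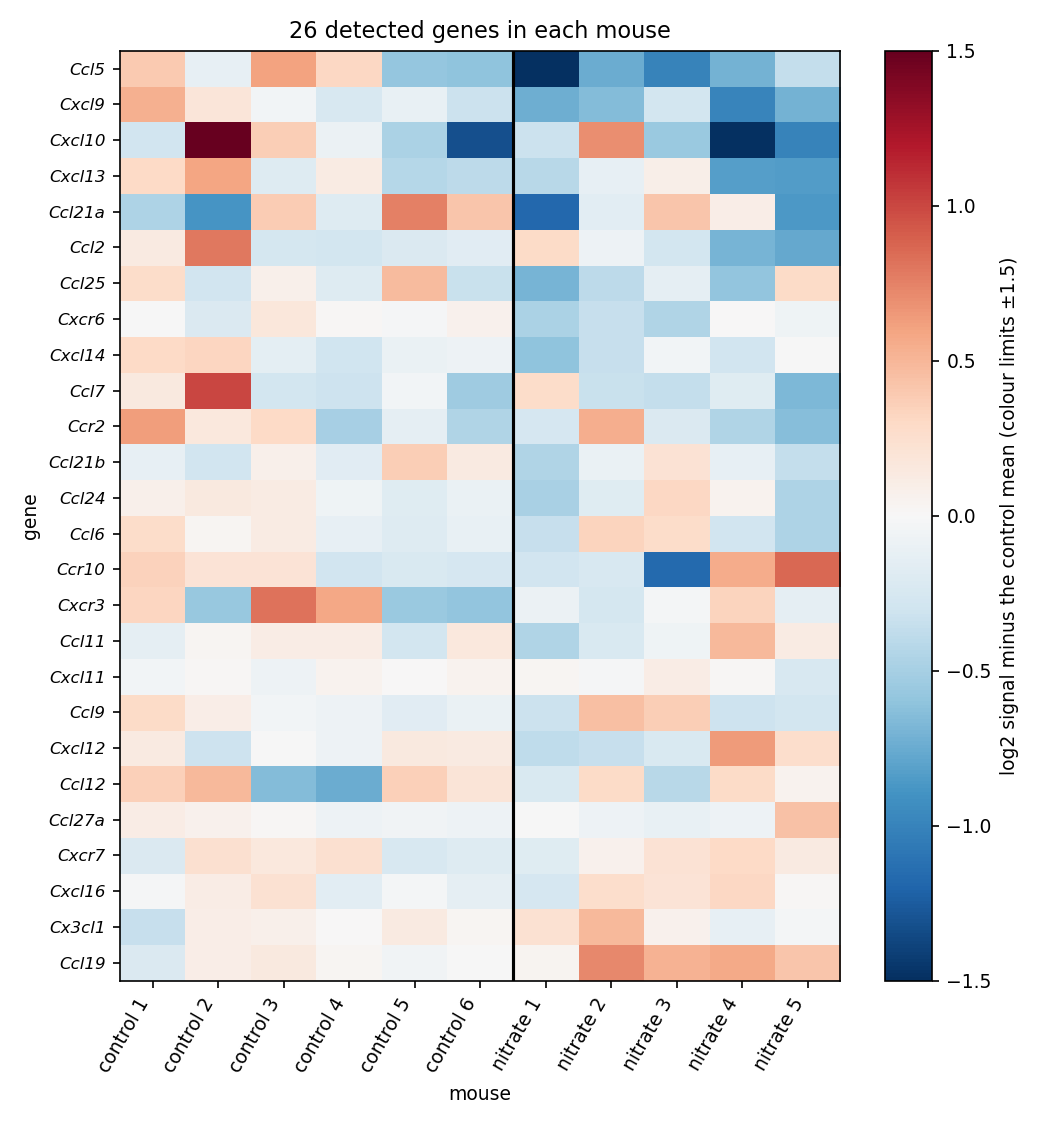
Log2 signal minus the control mean for 26 of the 27 detected genes (rows, ordered by the difference between groups) in 6 control and 5 nitrate mice (columns), red above and blue below the control mean. Ccl5 and Cxcl9 at the top are blue in all nitrate mice, Ccl19 at the bottom is red or pale in all of them, and Cxcl10 spans the colour range in both groups.

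Cell type markers were read beside these genes. None of the 5 pan-leukocyte genes was called and all had a lower mean on nitrate, with a list mean of -0.11. Single mice lay between -0.43 and 0.18 on nitrate and between -0.28 and 0.43 in the controls. Of 6 T cell genes 4 were detected and none was called, with a list mean of -0.01 and mice between -0.42 and 0.17 on nitrate and between -0.60 and 0.38 in the controls. Cd8a was above background on no array. All 10 macrophage genes had a higher mean on nitrate and none was called, with a list mean of 0.09. Of the 4 B cell genes only Cd79b was detected, and it was called lower (as 4.85% of all probes were), between 5.66 and 6.49 on nitrate and between 6.43 and 7.82 in the controls (difference -0.81, exact permutation P = 0.0195). Cd79a was above background on 1 control array and on no nitrate array, and Ms4a1 on 4 control arrays and 2 nitrate arrays. Of the neutrophil genes 3 were detected and S100a9 was called lower (-0.88, exact permutation P = 0.0606), while Mpo was above background on no array. S100a9 read 10.12 in control 1, between 7.37 and 8.46 in the other controls and between 7.002 and 7.65 on nitrate, and without control 1, a setting chosen after seeing the data, its difference was -0.52. All 7 adipocyte genes had lower means and 3 were called lower, where 4.85% of all probes were called lower, with a list mean of -0.42 and mice between -0.71 and -0.23 on nitrate and between -0.35 and 0.47 in the controls. Of 4 dendritic cell genes 2 were detected and none was called, with a list mean of 0.16 and mice between -0.24 and 0.56 on nitrate and between -0.41 and 0.34 in the controls. None of the 5 endothelial genes was called, with a list mean of 0.05 and mice between -0.05 and 0.14 on nitrate and between -0.15 and 0.14 in the controls. All 5 fibroblast genes and all 5 smooth muscle genes had higher means on nitrate with none called, each list at a mean of 0.14. Fibroblast values lay between -0.06 and 0.26 on nitrate and between -0.15 and 0.09 in the controls, and smooth muscle values between 0.06 and 0.25 and between -0.35 and 0.12. All 6 striated muscle genes had higher means with none called, at a list mean of 0.78 and with mice between -0.48 and 2.88 on nitrate and between -1.05 and 2.50 in the controls. The part of these cell types in the differences of Ccl5, Cxcl9, Cxcr6 and Ccl19 was not tested.

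Genes that act with chemokines were mostly not called. Of 52 listed partners 36 were detected: 3 of 6 atypical receptors and platelet chemokines, 23 of 29 signalling genes, 5 of 11 inducers and their signalling genes, and 5 of 6 proteases and other ligands. None was called higher and 1 was called lower (2.78% of the 36, compared with 9.00% of all probes in both directions). This was Ptk2b, a calcium-dependent kinase of adhesion sites that acts in leukocyte migration. It read 7.90 ± 0.16 (SD, n = 5) compared with 8.18 ± 0.11 (SD, n = 6), a difference of -0.27 with a standard error of 0.09 (exact permutation P = 0.0108, adjusted P = 0.223 in limma). Jak2 (0.24) and Rap1b (0.16), named after their values were seen, had unadjusted limma P values of 0.00426 and 0.0296 but stayed under the fold limit. No partner was called without nitrate mouse 5, control 1 or control 4, and 3 were called without control 5 or control 6. The inducers Tnf, Ifng and Il17a were above background on no array.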

How the data were processed

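RNA of 11 aortas, 5 from old nitrate treated and 6 from old control mice, was measured on one-color Agilent 8x60K arrays. The authors deposited spot intensities made with Feature Extraction 10.7.1.1, which subtracts local background and does not normalize between arrays, with quality flags. They also deposited a log2 table, quantile normalized and centred on the median of all samples. Probe positions are those of the files (mm9).

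From the deposited intensities, processed signals under 1 were set to 1 and put on the log2 scale, freed of control spots and outlier-flagged spots, averaged per probe and quantile normalized. Probes whose spot was found, and marked well above background, in 5 or more mice of a group were tested with lmFit and eBayes (limma 3.58.1, R 4.3.3), with Benjamini-Hochberg adjustment over all 23632 probes. Single genes also had two-sided exact permutation tests over 462 divisions, with a smallest possible P value of 0.00216. The brightest detected probe represented a gene. Values of undetected probes come from a fit over all probes.

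Members and lists were chosen with earlier results of these data known. Every member was accounted for by detection; 1 member and 1 marker enter the counts and are not reported here by name. Values of each mouse or group were given for detected members with an unadjusted P value under 0.05 and for their ligand and receptor groups, and differences for the others. Partners were named where they passed both thresholds, and Jak2, Rap1b, Pf4 and Ppbp outside this rule. Alternatives covered how arrays were normalized and corrected for background, 16 added to the signal, the authors' log2 table, the detection rule, spots with flags, the prior variance, slide and replicate number as blocks, the probe of a gene and leaving out each mouse. Replicate numbers belong to separate mice and are not known to pair them. The test was tried on simulated data. The number of arrays limits the precision.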

Additional observations from a re-analysis of the deposited data

Results flagged for a closer look

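In 2 of 62 gene and group combinations a single mouse stood far from the others of its group, where chance alone gives about 3.1 (1 in 20). Ccl27a was high in nitrate mouse 5, whose gap to the next mouse took a share of 0.807 of the range of the group. Cx3cl1 was low in control mouse 1, with a share of 0.725.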

How the results depend on the processing

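Between 3 and 6 members were called under all alternatives, and none at an adjusted P value under 0.05 in limma. Ccl19 and Ccl5 were called under every alternative, Cxcl9 under every one but detection on all 11 arrays. Leaving out 1 mouse gave 3 to 6 called members and 25 to 28 detected members. Other rules detected 19 (found and well above background on all 11 arrays) to 31 (no spot-found flag). The median difference of members lay between -0.20 and -0.07 without 1 mouse and between -0.15 and -0.04 otherwise. Within the second slide the difference of Cxcl9 was 0.00282, against -0.67 overall; that slide held 1 nitrate mouse and the cause was not tested. The number of called partners was 0 with normexp background correction, with 16 added and with the mean over probes, and 0 to 3 without 1 mouse. With the replicate number as a block, 6 members (Ccl19, Ccl25, Ccl5, Cxcl10, Cxcl13 and Cxcl9) and 3 partners were called, and Cxcr6 was not (unadjusted P = 0.0598). Deviations of same-numbered mice correlated between -0.14 and 0.18, which cannot settle whether the numbers pair the mice. With slide as a block, 6 members were called, Ccl2 and Cxcl13 in addition. The shares of all probes called with either block are not given, so these counts cannot be set against all probes. Without a detection filter, Cxcr5 was called too, although above background on 2 control arrays alone. Low signal near background limits Cxcl10, Ccr10 and Ccr8 most.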
